A study of Rattus norvegicus with 15 samples.

Results

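Transcripts of the protein components of the cytoplasmic ribosome were followed in rat liver cancer, in the cirrhotic liver around such tumours and in control liver. The genes were chosen by name: every probe with exactly 1 platform gene symbol that starts with Rpl or Rps and a digit, or with Rplp, without the kinases whose symbols start with Rps6k. This gave 43 probes of 3757, 26 for proteins of the large subunit (Rpl) and 17 for proteins of the small subunit (Rps), each for a different gene. By its RefSeq annotation 1 of them, Rpl22-ps2, is a pseudogene. The stalk proteins Rplp1 and Rplp2 were not analysed here. RNA came from liver of male Fischer344 rats (Fischer in the label of 1 control sample) after 70 weeks on a diet. Samples numbered 5 for each tissue. The hepatocellular carcinomas and the noncancerous cirrhotic liver came from rats on a choline-deficient, L-amino acid-defined diet, known to lead to fatty liver, cirrhosis and tumours in the rat without an added carcinogen, and control liver came from rats on a basal diet. The labels do not say whether samples of a group are separate animals or whether a carcinoma and a cirrhotic sample share an animal, so the p-values cover only the spread among them, which may be technical.

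Ribosomal proteins bind ribosomal RNA in the nucleolus to form a large and a small subunit, which join on an mRNA to translate it. They are made in matched amounts, and surplus subunit proteins are degraded. Growth signals act on their output through the kinase mTOR, and their mRNAs are known for a pyrimidine tract at the 5′ end through which mTOR and Larp1 act on translation. Liver is rich in ribosomes, which make the plasma proteins it secretes.

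Each deposited value is a sample's signal divided by the median of that probe across the 15 arrays. Values below are log2 of that ratio after quantile normalization, so 0 is near the probe's median and 1 is a doubling. The ratios hold no absolute level, so neither the tissue labels nor the order of genes by abundance could be checked by level. In bulk tissue, fewer cells of a type and less RNA per cell cannot be told apart. The deposited ratios stop at 0.01, a limit met by 209 values in cirrhotic 1, 229 in control 1 and at most 76 in any other sample, but by only 1 of the 645 values of ribosomal protein genes. Over the 15 samples a ribosomal protein gene spanned a median of 3.30 log2 units (1.58 to 6.69), against 3.59 for all probes, and the median 95% half-width of a difference was 1.19 against 1.27, so their precision was that of the array as a whole. The mean of the hepatocyte markers (10 of 13 measured) was 0.61, -0.41, -0.34, 0.06 and 0.68 in carcinomas 1 to 5, against 0.84, -1.52, -0.16, 0.07 and -0.19 in cirrhotic samples 1 to 5 and 0.52, 0.04, 0.37, -0.47 and -1.21 in control samples 1 to 5. Means of the stellate cell and myofibroblast markers (8 of 9 measured) ran from -0.23 to 0.60 in carcinomas, -0.65 to -0.26 in cirrhotic liver and -0.19 to 0.14 in control liver. Every cirrhotic sample thus lay below every carcinoma and every control sample for this list, though narrowly (-0.26 against -0.23 and -0.19). By gene, 4 of the 8 were above 0 and 4 below in cirrhotic against control liver (median difference -0.07). In carcinoma against cirrhotic liver 7 were above 0 and 1 below. Those of the lymphocyte markers (7 of 12 measured) ran from -0.93 to 0.58, -0.19 to 0.81 and -0.69 to 0.23 in the same order of tissues. Means of the macrophage markers (2 of 7 measured) ran from 0.28 to 0.98 in carcinomas, against -1.37 to 0.25 in cirrhotic liver and -2.04 to 0.61 in control liver, so every carcinoma lay above every cirrhotic sample. The bile duct list (3 of 6 measured) ran from -1.52 to 0.59, -0.60 to 0.43 and -1.28 to 1.06, the endothelial list (2 of 6) from -1.45 to 0.25, -0.57 to 0.60 and -0.96 to 1.05, and the red blood cell list (2 of 5) from -0.62 to 0.54, -0.86 to 0.96 and -0.75 to 1.13 in the same order. The part of these cell types in the results on ribosomal protein genes was not tested.

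The mean over all 43 genes was high in 2 of the 5 tumours and near the other tissues in the rest. It was 1.01, -0.30, -0.09, -0.18 and 0.93 in carcinomas 1 to 5, against 0.30, -0.52, -0.11, 0.17 and -0.81 in cirrhotic samples 1 to 5 and 0.10, -0.65, -0.20, -0.14 and -0.31 in control samples 1 to 5. Carcinomas 1 and 5 lay above all 10 other-tissue samples, while carcinomas 2, 3 and 4 lay within the range of both the cirrhotic and the control samples. In each tissue the sample numbered 1 had the highest mean (1.01, 0.30 and 0.10). What this shared order adds to the value of carcinoma 1 was not tested. In carcinoma 5, 41 of the 43 genes were above 0, and in carcinoma 1, 40 were. In carcinomas 2, 3 and 4 the number was 12, 21 and 26, against 6 to 26 in cirrhotic samples and 11 to 23 in control samples. Carcinomas 1 and 5 also had the highest hepatocyte marker means of the tumours (0.61 and 0.68). The highest of all samples was that of cirrhotic 1 (0.84), whose mean over the 43 genes was 0.30. The group means were 0.27 ± 0.64 in carcinoma, -0.19 ± 0.47 in cirrhotic liver and -0.24 ± 0.27 in control liver (SD, n = 5 each). The difference of 0.47 between carcinoma and cirrhotic liver was smaller than the pooled SD between samples (0.56), and that of 0.51 between carcinoma and control liver was close to it (0.49). Cirrhotic and control liver differed by 0.04 (pooled SD 0.38).

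The large and the small subunit were high in the same tumours. The mean over the 26 Rpl genes was 1.15, -0.46, -0.07, -0.25 and 1.02 in carcinomas 1 to 5, against 0.35, -0.48, -0.17, 0.16 and -0.87 in cirrhotic samples and 0.11, -0.87, -0.07, 0.04 and -0.28 in control samples. The mean over the 17 Rps genes was 0.79, -0.05, -0.12, -0.08 and 0.78 in carcinomas, against 0.23, -0.58, -0.01, 0.19 and -0.71 in cirrhotic samples and 0.07, -0.30, -0.39, -0.41 and -0.36 in control samples. Carcinomas 1 and 5 were the 2 highest of the 15 samples for both subunits. The sample numbered 1 was again the highest of its tissue for both. Group means of Rpl were 0.28 ± 0.75 in carcinoma, -0.20 ± 0.49 in cirrhotic liver and -0.21 ± 0.40 in control liver, and those of Rps were 0.26 ± 0.48, -0.18 ± 0.44 and -0.28 ± 0.20 in the same order (SD, n = 5 each). Within a sample, the Rpl mean minus the Rps mean was 0.37, -0.41, 0.05, -0.16 and 0.25 in carcinomas, 0.12, 0.10, -0.16, -0.03 and -0.15 in cirrhotic samples and 0.04, -0.57, 0.32, 0.45 and 0.08 in control samples. It averaged 0.02 ± 0.31, -0.03 ± 0.14 and 0.06 ± 0.39 (SD, n = 5 each), so the groups overlapped throughout and their means differed by at most 0.09, less than the spread between samples. The spread of this quantity was smallest in cirrhotic liver, where the 5 samples lay between -0.16 and 0.12.

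**Figure D1:**
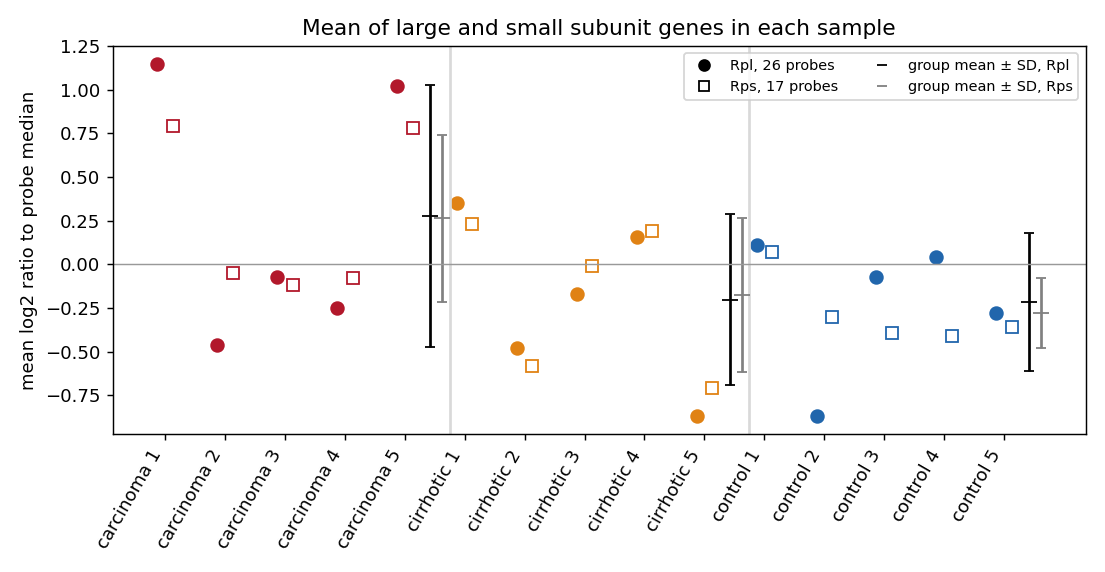
Mean log2 ratio to the probe median (vertical axis) over the 26 Rpl probes (filled circles) and the 17 Rps probes (open squares) in each of the 15 samples (horizontal axis: carcinoma, cirrhotic, control), with group means ± SD (n = 5) as bars. Carcinomas 1 and 5 stand at 0.78 to 1.15, and the remaining 13 samples lie between -0.87 and 0.35 for both subunits.

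Gene by gene, most ribosomal protein genes lay higher in carcinoma than in either other tissue, and no difference passed the test. In carcinoma against cirrhotic liver 31 of the 43 differences were above 0 (19 of 26 Rpl and 12 of 17 Rps), where 49.3% of all probes were, and the median difference was 0.47 (0.50 for Rpl and 0.44 for Rps) against -0.02 over all probes. In carcinoma against control liver 34 were above 0 (21 Rpl and 13 Rps), where 50.1% of all probes were, with a median of 0.65 (0.64 for Rpl and 0.65 for Rps) against 0.00. These comparisons share the carcinoma samples. In cirrhotic against control liver 24 were above 0 (13 Rpl and 11 Rps), where 50.7% of all probes were, with a median of 0.08 (0.01 for Rpl and 0.24 for Rps) against 0.02. Without carcinoma 1 the median was 0.23 against cirrhotic liver and 0.34 against control liver. Against control liver it was also 0.32 without control 2 and 0.41 without carcinoma 5. The median between cirrhotic and control liver ranged from -0.02 without control 3 to 0.22 without control 4. For Rpl alone, the median against cirrhotic liver was 0.26 without carcinoma 1, 0.31 without cirrhotic 5 and 0.85 without carcinoma 2. Against control liver it was 0.30 without carcinoma 1 or control 2 and 0.36 without carcinoma 5. For Rps alone, the median against cirrhotic liver was 0.20 without carcinoma 1 and 0.24 without cirrhotic 2. Between cirrhotic and control liver both subunits took either sign, with -0.22 for Rpl without cirrhotic 4 and -0.08 for Rps without control 3.

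At a limma adjusted p of 0.05 none of the 43 genes was called in any of the 3 comparisons, where 0.0% of all 3757 probes were called. The smallest adjusted p of a ribosomal protein gene was 0.267 in carcinoma against cirrhotic liver, 0.564 in carcinoma against control liver and 0.332 in cirrhotic against control liver. At an unadjusted p under 0.05 there were 5 genes, all higher in carcinoma than in cirrhotic liver (Rpl6, Rpl15, Rpl28, Rpl41 and Rps21). This was 11.6% of the 43, where 13.2% of all probes reached that p, 6.95% as higher and 6.28% as lower. Between carcinoma and control liver there were 4, all higher in carcinoma (Rpl6, Rps21, Rps26 and Rps29), or 9.3%, where 7.4% of all probes reached it, 3.65% as higher and 3.75% as lower. Between cirrhotic and control liver there were 5, with Rps29 higher and Rpl37l1, Rpl39, Rps9 and Rps15a lower in cirrhotic liver, or 11.6%, where 9.64% of all probes did, 4.02% as higher and 5.62% as lower. In the comparison of carcinoma with cirrhotic liver the count was 2 without carcinoma 5, where 11.6% of all probes reached that p, and 12 without carcinoma 2, where 13.4% did. Groups that did not overlap were found for 1 gene (2.33%) in each comparison: Rps15 between carcinoma and cirrhotic liver (2.71% of all probes), Rpl6 between carcinoma and control liver (1.89%) and Rpl37l1 between cirrhotic and control liver (1.65%). These shares of genes without overlap lay near those of the array.

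**Figure D2:**
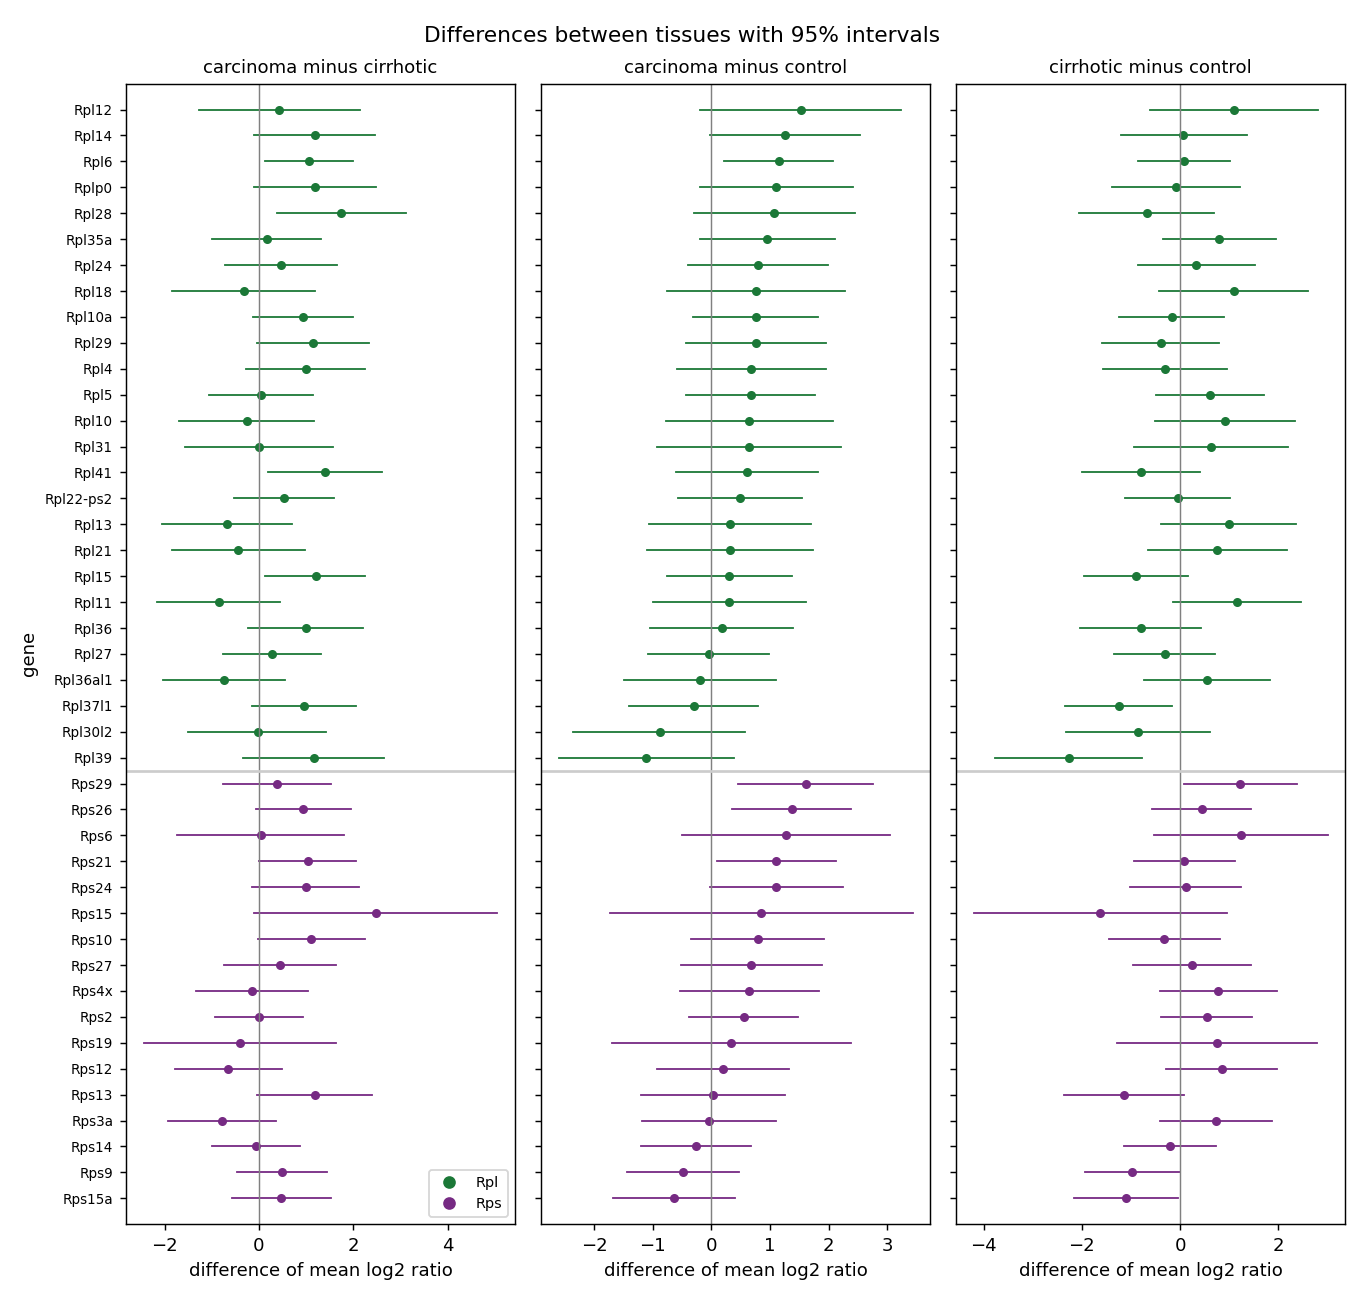
Difference of mean log2 ratio (horizontal axis, points) with its 95% interval (lines) for each ribosomal protein gene (vertical axis, Rpl above Rps, ordered by the difference between carcinoma and control liver), in carcinoma minus cirrhotic, carcinoma minus control and cirrhotic minus control liver (n = 5 each). Points lie right of 0 for 31, 34 and 24 of the 43 genes, and most intervals include 0.

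The values of the 43 genes went with the numbering of their probes. The probes carry numbers in the deposited table, and ratios of neighbouring numbers shifted together in long stretches that differed between samples. Of the ribosomal protein probes, 13 had numbers 422 to 1341 (7 Rpl and 6 Rps), 5 had numbers 2158 to 2452 and 25 had numbers 2840 to 3747 (16 Rpl and 9 Rps), a grouping chosen after the values were seen. The mean of the 13 low-numbered genes was 1.46, -0.12, -1.15, -1.33 and 1.36 in carcinomas 1 to 5, against 1.17, -0.05, -0.12, 1.25 and -0.33 in cirrhotic samples and 0.11, -1.43, 0.07, -1.26 and -0.24 in control samples. The mean of the 25 high-numbered genes was 0.72, -0.36, 0.32, 0.39 and 0.71 in carcinomas, against -0.24, -0.82, -0.23, -0.46 and -1.15 in cirrhotic samples and 0.18, -0.28, -0.23, 0.32 and -0.22 in control samples. Carcinomas 1 and 5 were high in both sets, while carcinomas 3 and 4 were low in the first and above 0 in the other.

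The sets also gave opposite signs between carcinoma and cirrhotic liver. There, 3 of the 13 low-numbered genes were above 0 (median difference -0.41) and 23 of the 25 high-numbered genes were (median 0.99). Other probes, taken over wider ranges of low and high numbers than those of the genes, shifted the same way. Their medians were -0.51 over 1283 low-numbered and 0.45 over 1258 high-numbered probes. In cirrhotic against control liver all 13 low-numbered genes were above 0 (median 0.91, other probes 0.50) and 6 of 25 high-numbered ones were (median -0.32, other probes -0.58). In carcinoma against control liver the sets had the same sign, with 11 of 13 low-numbered genes above 0 (median 0.34, other probes 0.07) and 18 of 25 high-numbered ones (median 0.68, other probes -0.11). The 5 genes between them had medians of 0.05, 0.67 and 0.62 in the 3 comparisons. Rpl and Rps were mixed in the low and the high set, and within each their medians had the same sign in all 3 comparisons. The part of the shared shift in the differences of ribosomal protein genes was not tested.

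When a running median over probes of other genes, with 50 on each side, was subtracted in each sample, the median difference over all 43 genes was 0.43 in carcinoma against cirrhotic liver (30 above 0), 0.61 in carcinoma against control liver (34 above 0) and 0.37 in cirrhotic against control liver (32 above 0). The value for cirrhotic against control liver had been 0.08 before this step. The numbers of genes at an unadjusted p under 0.05 were then 2, 7 and 1 of 43, where 9.87%, 8.52% and 4.05% of all probes reached it. The low-numbered genes had medians of 0.02, 0.34 and 0.46 after the step, and the high-numbered genes 0.55, 0.61 and 0.07.

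**Figure D3:**
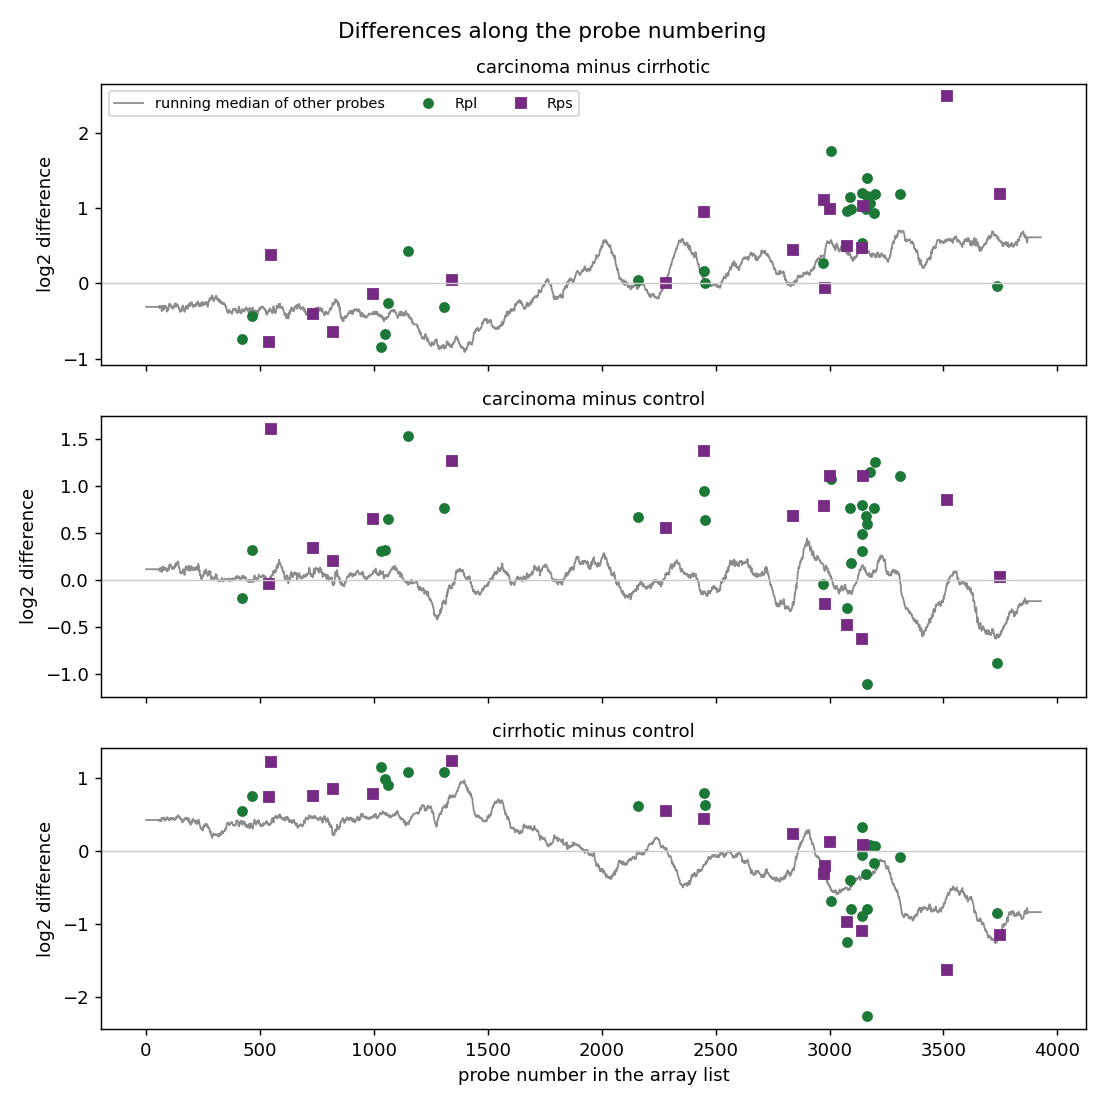
Log2 difference (vertical axes) of each Rpl (circles) and Rps gene (squares) against its probe number (horizontal axis) in carcinoma minus cirrhotic, carcinoma minus control and cirrhotic minus control liver, with the running median of other probes as a line. The line and the genes run upward along the numbering in the upper panel and downward in the lower panel, and in the middle panel most genes lie above a line that stays near 0 over most of the numbering.

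Among themselves the ribosomal protein genes were loosely tied. Over the 15 samples, which share the array and its position-linked shifts, the median Pearson r of 903 gene pairs was 0.21, with 643 pairs above 0. It was 0.31 between Rpl genes, 0.06 between Rps genes and 0.18 between an Rpl and an Rps gene. Pairs of low-numbered genes had a median r of 0.73, and all 78 of them were above 0. Pairs of high-numbered genes had 0.31 and pairs across the sets 0.04. After subtraction of the running median these 3 values were 0.55, 0.24 and 0.28, so the low-numbered genes remained the most alike. Rps14, a small subunit protein encoded by a gene linked to 5q- anaemia in humans, was nearly flat in carcinoma, with 0.07, -0.02, -0.01, 0.02 and 0.08 in carcinomas 1 to 5, against values from -0.56 to 1.02 in cirrhotic samples and -0.24 to 0.92 in control samples.

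**Figure D4:**
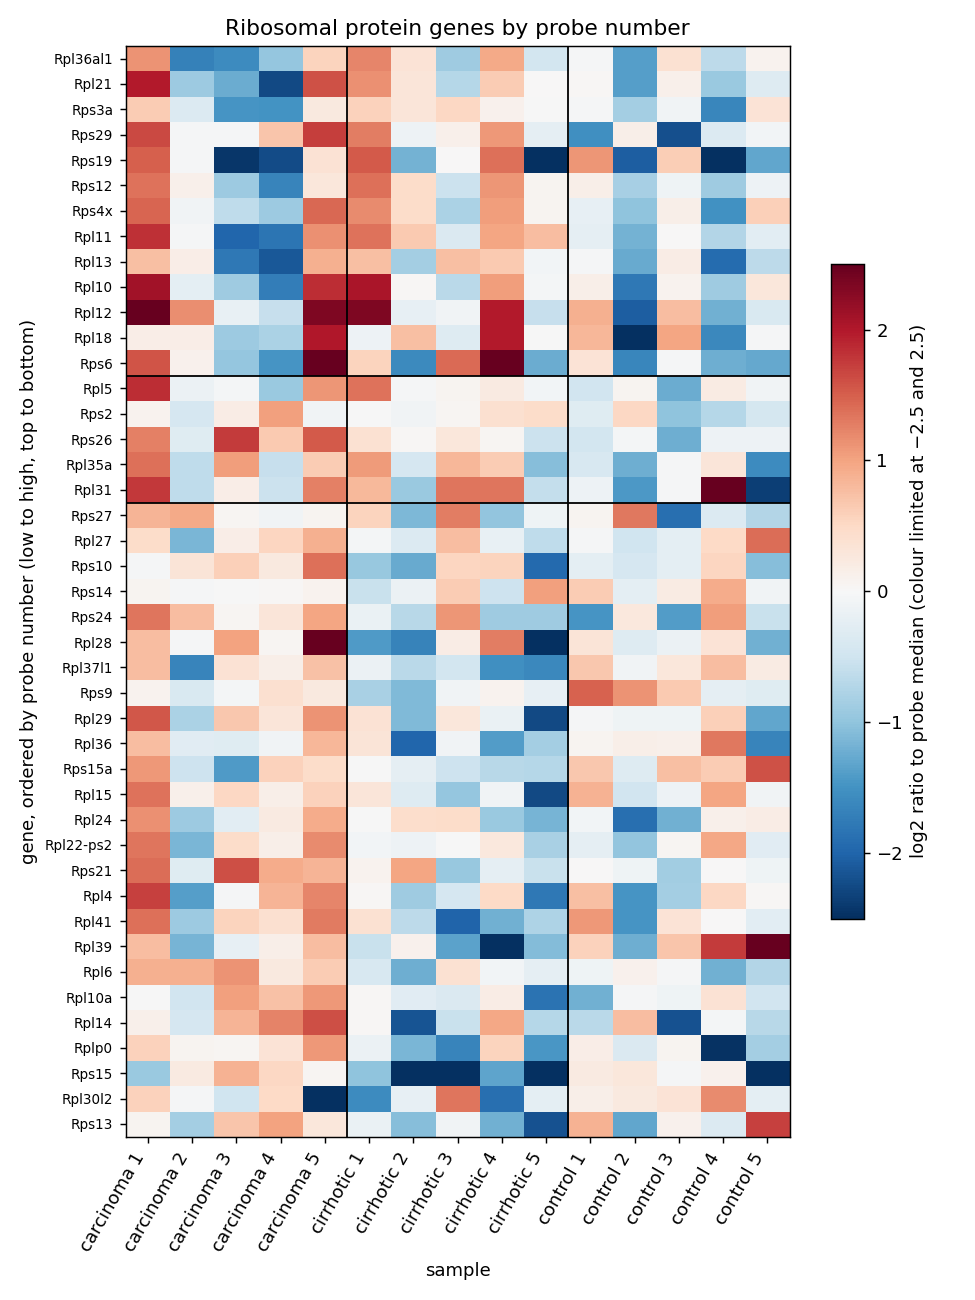
Log2 ratio to the probe median (colour, limited at -2.5 and 2.5) of the 43 genes (vertical axis, in order of probe number, with lines between the low, middle and high numbers) in the 15 samples (horizontal axis). Carcinomas 1 and 5 are red over most of the length (40 and 41 of 43 genes above 0), carcinomas 3 and 4 are blue in most of the upper 13 rows and mostly red below, and cirrhotic 5 is blue in most rows (6 genes above 0).

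A pyrimidine-rich stretch of letters was looked for at the start sites. Promoter sequences of RefSeq assembly GRCr8 were found for 37 of the 43 genes (22 Rpl and 15 Rps). In the 25 bases before and the 25 from the annotated start, the letters CTTTC stood on the transcribed sense strand in 19 of 37 (51.4%), 12 Rpl and 7 Rps, against 6.39% of all 33469 promoters. On the opposite strand they stood in 1 of 37 (2.7%), against 6.45% of all. The annotated transcript began with C in 19 of 37 genes (51.4%), against 24.1% of all. The windows of 6 genes whose values are described next are shown 5′ to 3′ on the gene's strand, with CTTTC in capitals and the annotated start at base 26. Of these, 4 hold it and 2 do not, and in Rpl28 a pair of matches shares 1 C. A match may lie wholly before the annotated start, and it is a description of letters and not a tested site.
Rpl28 (chr1:78083508-78083557, minus strand): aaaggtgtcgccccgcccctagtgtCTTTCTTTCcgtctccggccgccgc
Rpl39 (chrX:121195872-121195921, minus strand): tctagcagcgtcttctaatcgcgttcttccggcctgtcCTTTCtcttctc
Rps21 (chr3:187724013-187724062, plus strand): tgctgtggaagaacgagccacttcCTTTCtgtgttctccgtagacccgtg
Rps26 (chr7:1643380-1643429, minus strand): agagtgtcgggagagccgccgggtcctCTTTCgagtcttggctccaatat
Rpl6 (chr12:41011666-41011715, minus strand): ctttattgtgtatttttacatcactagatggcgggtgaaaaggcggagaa
Rps15 (chr7:10068091-10068140, minus strand): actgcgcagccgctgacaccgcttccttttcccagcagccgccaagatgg
The 19 genes with CTTTC had a median difference of 0.16 in carcinoma against cirrhotic liver, 0.67 in carcinoma against control liver and 0.44 in cirrhotic against control liver. The 18 without it had 0.96, 0.67 and 0.10. With CTTTC 12, 14 and 12 genes were above 0 in these comparisons, and without it 13, 17 and 11. These sets were not matched for probe number, and the part of the shift along the numbering in these medians was not tested.

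Among large subunit genes, Rpl6 was the most even of those higher in carcinoma. Its log2 ratio was 0.88, 0.89, 1.13, 0.24 and 0.64 in carcinomas 1 to 5, against -0.41, -1.22, 0.38, -0.07 and -0.22 in cirrhotic samples and -0.11, 0.11, -0.03, -1.21 and -0.73 in control samples. All 5 carcinomas lay above all 5 control samples, and only cirrhotic 3 reached into the range of the tumours. The difference was 1.15 (95% interval 0.21 to 2.08, limma adjusted p = 0.567) against control liver and 1.07 (0.13 to 2.0, adjusted p = 0.323) against cirrhotic liver, where it was 0.69 after subtraction of the running median. Carcinoma 2, whose mean over all 43 genes was -0.30, was high here.

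Rpl28, a large subunit protein found in eukaryotes and not in bacteria, had 0.77, -0.02, 1.0, 0.04 and 2.56 in carcinomas, against -1.41, -1.67, 0.18, 1.28 and -2.78 in cirrhotic samples and 0.33, -0.32, -0.15, 0.35 and -1.21 in control samples. The cirrhotic samples were split, with 3 of them below every carcinoma and cirrhotic 4 above all but carcinoma 5. The difference between carcinoma and cirrhotic liver was 1.75 (0.39 to 3.12, limma adjusted p = 0.267), with 0.98 when ratios under the 25th percentile were set to it. Rpl41, a very short and basic peptide, averaged 0.54 ± 0.92 in carcinoma, -0.86 ± 0.88 in cirrhotic liver and -0.06 ± 0.93 in control liver (SD, n = 5 each). Its difference from cirrhotic liver was 1.40 (0.19 to 2.60, limma adjusted p = 0.315), and carcinoma 2 (-0.91) lay within the cirrhotic range. Rpl15 averaged 0.54 ± 0.50, -0.66 ± 1.0 and 0.23 ± 0.65 in the same order, with a difference from cirrhotic liver of 1.2 (0.13 to 2.26, limma adjusted p = 0.327) that was 0.69 after subtraction of the running median.

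The stalk of the large subunit recruits translation factors. Rplp0, the protein at its base, had 0.57, 0.07, 0.04, 0.34 and 1.08 in carcinomas, against -0.15, -1.14, -1.65, 0.55 and -1.46 in cirrhotic samples and 0.17, -0.36, 0.07, -2.48 and -0.84 in control samples. All 5 carcinomas were above 0, and the groups overlapped through cirrhotic 4 and controls 1 and 3. The difference was 1.19 (-0.11 to 2.49, limma adjusted p = 0.406) against cirrhotic liver, which was 0.50 after subtraction of the running median, and 1.11 (-0.19 to 2.41, adjusted p = 0.715) against control liver, which was 0.67 without control 4. Rpl12, its neighbour at the stalk base, had 2.91, 1.17, -0.19, -0.57 and 2.34 in carcinomas, against 2.34, -0.20, -0.09, 1.99 and -0.57 in cirrhotic samples and 0.89, -2.06, 0.77, -1.2 and -0.38 in control samples. Its highest values were those of carcinomas 1 and 5 and of cirrhotic 1 and 4, and its difference between carcinoma and control liver was 1.53 (-0.19 to 3.24, limma adjusted p = 0.714).

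Rpl5 and Rpl11 form a particle with 5S ribosomal RNA that, when free of the ribosome, can bind Mdm2 and so stabilize p53. Rpl11 had 1.83, -0.02, -1.99, -1.83 and 1.15 in carcinomas, against 1.35, 0.66, -0.37, 0.99 and 0.78 in cirrhotic samples and -0.22, -1.18, 0.00, -0.74 and -0.26 in control samples. The tumours spanned the whole range of the gene, and 4 of 5 cirrhotic samples lay above all controls. The difference between carcinoma and cirrhotic liver, the lowest of all 43, was -0.85 (-2.16 to 0.45, limma adjusted p = 0.547), with -0.41 after subtraction of the running median, -0.40 without carcinoma 3, -0.45 without carcinoma 4 and -1.33 without carcinoma 1. Between cirrhotic and control liver it was 1.16 (-0.14 to 2.47, adjusted p = 0.543), and 0.66 after that subtraction. Rpl5 had 1.84, -0.14, -0.04, -0.93 and 1.10 in carcinomas, against 1.35, -0.02, 0.06, 0.23 and -0.06 in cirrhotic samples and -0.47, 0.07, -1.25, 0.20 and -0.08 in control samples. It thus shared the high values of carcinomas 1 and 5 and cirrhotic 1 with Rpl11.

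A few large subunit genes lay on the other side. Rpl39, a small protein that lines the exit tunnel of the nascent chain, had 0.78, -1.17, -0.20, 0.14 and 0.77 in carcinomas, against -0.56, 0.10, -1.34, -2.60 and -1.08 in cirrhotic samples and 0.58, -1.22, 0.70, 1.74 and 4.08 in control samples. Control 5 was the highest, 4 of 5 controls lay above all cirrhotic samples, and control 2 lay among them. The difference between cirrhotic and control liver was -2.27 (-3.76 to -0.78, limma adjusted p = 0.332), and that between carcinoma and control liver was -1.11 (-2.60 to 0.38, adjusted p = 0.738), with -0.39 without control 5, -1.72 without control 2 and -0.59 on the ratios as deposited.

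Rpl37l1, listed with the synonym Rpl37, a zinc-binding protein, had 0.77, -1.65, 0.36, 0.14 and 0.73 in carcinomas, against -0.15, -0.67, -0.46, -1.53 and -1.62 in cirrhotic samples and 0.67, -0.09, 0.28, 0.77 and 0.21 in control samples. All cirrhotic samples lay below all controls, the closest pair being -0.15 and -0.09, and 4 of 5 carcinomas lay in the control range. The difference between cirrhotic and control liver was -1.25 (-2.35 to -0.16, limma adjusted p = 0.453), with -0.75 after subtraction of the running median. Rpl36al1 differed by -0.74 (-2.03 to 0.55, limma adjusted p = 0.594) between carcinoma and cirrhotic liver, with -1.14 without carcinoma 1, -0.46 without carcinoma 2, -0.47 without carcinoma 3 or without cirrhotic 1, and -0.38 after subtraction of the running median. Rpl30l2 differed by -0.88 (-2.35 to 0.58, limma adjusted p = 0.795) between carcinoma and control liver, with -0.19 without carcinoma 5 and -0.31 after that subtraction.

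Among small subunit genes, Rps29, a zinc-binding protein, and Rps26, which lies at the mRNA exit of the small subunit, had the highest differences between carcinoma and control liver. Rps29 had 1.65, -0.02, -0.02, 0.69 and 1.72 in carcinomas, against 1.28, -0.13, 0.13, 1.08 and -0.23 in cirrhotic samples and -1.54, 0.14, -2.20, -0.35 and -0.07 in control samples. Carcinoma and cirrhotic samples overlapped, and controls 1 and 3 were the lowest samples. The difference was 1.61 (0.46 to 2.76, limma adjusted p = 0.564) in carcinoma against control liver and 1.23 (0.08 to 2.38, adjusted p = 0.498) in cirrhotic against control liver, with 0.77 for the second without control 1 and cirrhotic 1 together.

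Rps26 had 1.25, -0.31, 1.75, 0.65 and 1.54 in carcinomas, against 0.38, 0.02, 0.29, 0.05 and -0.54 in cirrhotic samples and -0.46, -0.04, -1.23, -0.13 and -0.12 in control samples. Every carcinoma but the second lay above all samples of the other tissues. The difference was 1.37 (0.36 to 2.38, limma adjusted p = 0.564) against control liver and 0.94 (-0.07 to 1.95, adjusted p = 0.405) against cirrhotic liver. Rps21, which binds near Rpsa on the small subunit, averaged 0.90 ± 0.75 in carcinoma, -0.13 ± 0.73 in cirrhotic liver and -0.22 ± 0.36 in control liver (SD, n = 5 each). Again carcinoma 2 (-0.31) was the only tumour below 0. The difference was 1.11 (0.09 to 2.13, limma adjusted p = 0.649) against control liver and 1.03 (0.00 to 2.05, adjusted p = 0.377) against cirrhotic liver, the second being 0.52 after subtraction of the running median.

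Rps15, a protein of the small subunit head needed for nuclear export of the pre-subunit in human cells, had the highest difference of all 43 genes between carcinoma and cirrhotic liver. It had -0.93, 0.22, 0.87, 0.51 and 0.04 in carcinomas, against -1.0, -3.54, -3.20, -1.32 and -2.62 in cirrhotic samples and 0.23, 0.28, -0.03, 0.10 and -4.14 in control samples. All cirrhotic samples lay below all carcinomas, the closest pair being -1.0 and -0.93, and 4 of 5 controls lay in the range of the carcinomas. The difference was 2.48 (-0.10 to 5.06, limma adjusted p = 0.392) between carcinoma and cirrhotic liver, with 0.85 when ratios under the 25th percentile were set to it, and the groups then overlapped. Between cirrhotic and control liver it was -1.63 (-4.20 to 0.95, adjusted p = 0.657), with -2.46 without control 5, -0.64 with that floor and -1.01 after subtraction of the running median.

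Rps6, the substrate of S6 kinase, varied widely within tissues. It had 1.57, 0.11, -0.97, -1.47 and 3.33 in carcinomas, against 0.55, -1.60, 1.42, 3.27 and -1.24 in cirrhotic samples and 0.35, -1.63, -0.03, -1.22 and -1.27 in control samples. Carcinoma 5 and cirrhotic 4 stood above all others, and the tissues overlapped. The difference was 0.04 (-1.74 to 1.81, limma adjusted p = 0.989) between carcinoma and cirrhotic liver, and it took either sign when single samples were left out. Against control liver it was 1.27 (-0.50 to 3.05, adjusted p = 0.754) for carcinoma, with 0.56 without carcinoma 5, and 1.24 (-0.53 to 3.01, adjusted p = 0.623) for cirrhotic liver, with 0.54 without cirrhotic 4 and 0.49 after subtraction of the running median.

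The remaining named small subunit genes had differences below 0 in at least 1 comparison. Rps3a differed by -0.78 (-1.92 to 0.36, limma adjusted p = 0.524) between carcinoma and cirrhotic liver, and by -0.43 after subtraction of the running median. Rps15a averaged 0.04 ± 1.0 in carcinoma, -0.43 ± 0.31 in cirrhotic liver and 0.67 ± 0.68 in control liver (SD, n = 5 each), and its difference between cirrhotic and control liver was -1.10 (-2.15 to -0.05, limma adjusted p = 0.502). Between carcinoma and control liver it differed by -0.63 (-1.68 to 0.41, limma adjusted p = 0.793), with -0.27 without carcinoma 3 and -0.40 without control 5. Rps9, a protein near the mRNA entry, averaged 0.06 ± 0.30 in carcinoma, -0.43 ± 0.51 in cirrhotic liver and 0.54 ± 0.79 in control liver. It differed between cirrhotic and control liver by -0.97 (-1.93 to -0.01, limma adjusted p = 0.511), with -0.46 after subtraction of the running median and -0.61 without control 1 and cirrhotic 1 together. In both Rps9 and Rps15a the cirrhotic and control samples overlapped.

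**Figure D5:**
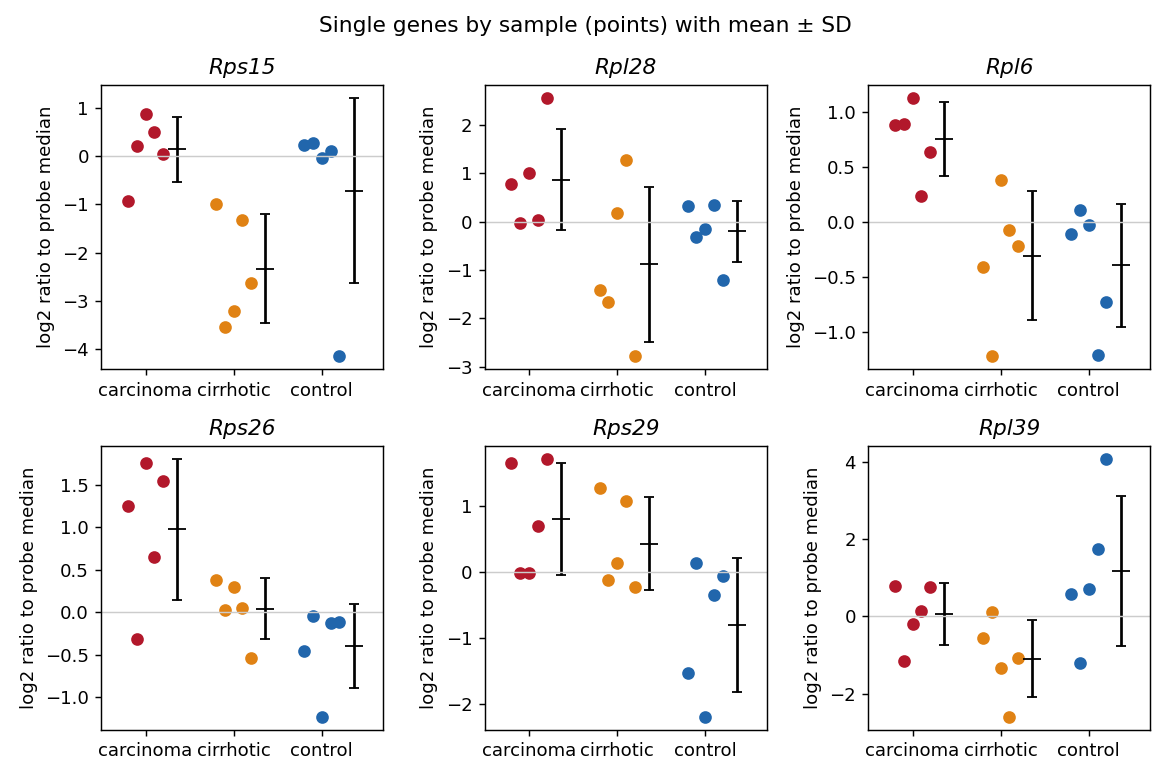
Log2 ratio to the probe median (vertical axes) of Rps15, Rpl28, Rpl6, Rps26, Rps29 and Rpl39 in each sample (points) of carcinoma, cirrhotic and control liver (horizontal axes), with the mean ± SD (n = 5) as bars. The cirrhotic samples lie below all carcinomas for Rps15, the carcinomas lie above all control samples for Rpl6, and single control samples stand far from their group for Rps15 (-4.14) and Rpl39 (4.08).

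Factors and kinases that work with the ribosome were read from lists chosen by name or role. The 15 measured genes with symbols starting with Eif or Eef were translation factors, their kinases and the binding protein Eif4ebp1. Eif4ebp1 also belongs to the list of ribosome production and its control below. Their median differences were -0.22 in carcinoma against cirrhotic liver, -0.33 in carcinoma against control liver and -0.37 in cirrhotic against control liver. After subtraction of the running median these medians were -0.09, -0.31 and 0.09, the last with the other sign. Before it, none of the 15 was called at an adjusted p of 0.05 in limma. At an unadjusted p under 0.05, 2 were higher and 1 lower in the first comparison, 1 higher and 2 lower in the second, and 0 in the third. Of all probes, 13.2%, 7.4% and 9.64% reached that p in either direction. Eif2b4, a subunit of the exchange factor that recharges eIF2, differed by 2.76 (1.04 to 4.47, limma adjusted p = 0.224) between carcinoma and cirrhotic liver and by 1.90 (0.19 to 3.61, adjusted p = 0.645) between carcinoma and control liver. Eif2b5, another subunit of that factor, differed by -1.57 (-3.12 to -0.03) between carcinoma and control liver. Eif5 was lower in carcinoma than in cirrhotic liver, by -1.52 (-2.95 to -0.09, limma adjusted p = 0.355), and by -1.17 after subtraction of the running median. Eef1a1, the elongation factor that delivers aminoacyl-tRNA, differed by 1.2 (0.05 to 2.34) between carcinoma and cirrhotic liver. Its paralog Eef1a2 differed by -1.65 (-3.15 to -0.15) between carcinoma and control liver, where its groups did not overlap, as for 1.89% of all probes.

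Of 39 listed genes of ribosome production and its control 16 were measured, with medians of -0.59, 0.00 and 0.57 in the 3 comparisons. After subtraction of the running median these medians were -0.18, -0.02 and 0.15. Before it, none of the 16 was called at an adjusted p of 0.05 in limma. Rps6kb1, the S6 kinase that phosphorylates Rps6, was lower in all 5 carcinomas than in all 5 cirrhotic samples. Groups without overlap were found for 2.71% of all probes in that comparison. The difference of Rps6kb1 was -1.98 (-3.14 to -0.82, limma adjusted p = 0.224), and -1.13 after subtraction of the running median. Akt1, a kinase upstream of mTOR, differed by -2.06 (-3.88 to -0.23, limma adjusted p = 0.327) between the same tissues. Tsc1 and Tsc2 together restrain mTOR. Tsc2 differed by 1.26 (0.32 to 2.21, limma adjusted p = 0.260) between carcinoma and cirrhotic liver, with 0.71 after the subtraction. Tsc1 went the other way there, by -1.07 (-2.47 to 0.33). Between cirrhotic and control liver Tsc1 differed by 1.95 (0.55 to 3.35, limma adjusted p = 0.378) and Tsc2 by -0.67 (-1.62 to 0.28). Between carcinoma and control liver Tsc1 differed by 0.88 and Tsc2 by 0.59. Rpsa and Rack1, small subunit proteins outside the naming rule, differed by 0.54 and -0.43 between carcinoma and cirrhotic liver, 0.21 and 0.71 between carcinoma and control liver, and -0.33 and 1.14 between cirrhotic and control liver. Mrpl23, the 1 mitochondrial ribosomal protein gene measured, differed by 1.29, 0.01 and -1.29 in these comparisons.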

How the data were processed

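Groups and replicate numbers of the 15 arrays come from the titles. The deposited values are a linear ratio of each probe to its median over all arrays, with 0.01 as the lowest. What array, dyes and scanner were used was not given in the sources used here. Of 3757 probes, 3440 had 1 symbol in the platform annotation, 4 had several and 313 had none listed. Ratios were quantile-normalized, put on the log2 scale and fitted over all samples with group as the term (limma 3.58.1 in R 4.3.3, lmFit and eBayes, mean-variance trend, 12 residual degrees of freedom). Two-sided p-values received a Benjamini-Hochberg adjustment over the whole table before the rows of the ribosomal protein genes were read. The fit was tested on simulated data. No filter was applied, so all 43 genes were tested, and no score over them was. Members, lists and alternatives (other scalings, floors, weights, a running median along the numbering, samples left out) were chosen with earlier results of these data known. Named genes had groups without overlap, were among the 3 highest or 3 lowest of a comparison, or were Rplp0 or Rps6, while Rpl5, Rpl15, Rps9, Rps14 and Rps21 were named after their values were seen. Figures were drawn with matplotlib 3.10.9.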

Additional observations from a re-analysis of the deposited data

Results flagged for a closer look

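In 5 of 69 sets of 5 values, the highest or lowest sample stood apart from the other 4 by more than 0.71 of the range. Chance gives about 1 in 20 for sets not picked by their values. The flagged genes were named from these same values, so that rate does not hold for them. The mean over Rps genes was 0.07 in control 1, against -0.41 to -0.30 in the other controls. Rpl37l1 was -1.65 in carcinoma 2, against 0.14 to 0.77 in the other carcinomas. Rpl30l2 was -3.28 in carcinoma 5, against -0.50 to 0.57 in the other carcinomas, and carcinoma 5 was otherwise high for ribosomal protein genes (41 of 43 above 0). Rps21 was -0.86 in control 3, against -0.11 to 0.01 in the other controls. Rps15 was -4.14 in control 5, against -0.03 to 0.28 in the other controls.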

How the results depend on the processing

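In every alternative run, leaving out each sample included, 0 of the 43 genes passed an adjusted p of 0.05 in limma. Over all probes the count was also 0, except for 2 probes in carcinoma against cirrhotic liver without cirrhotic 5. The median difference over the genes ranged from 0.23 to 0.63 (carcinoma against cirrhotic liver), 0.32 to 0.79 (carcinoma against control) and -0.02 to 0.22 (cirrhotic against control) with 1 sample left out, and from 0.38 to 0.57, 0.49 to 0.92 and 0.01 to 0.37 in the other settings. On the ratios as deposited the median over all probes was 0.05, 0.13 and 0.11, and that of the genes exceeded it by 0.44, 0.77 and 0.21. Rpl minus Rps ranged from -0.04 to 0.15, -0.20 to 0.06 and -0.25 to 0.01 with 1 sample left out. Correlations of same-numbered samples' deviations ran from -0.34 to 0.387. They were above 0 for number 1 in all comparisons (0.387, 0.191 and 0.324) and of both signs for numbers 2 to 5, so the numbers were not taken as pairs. With the replicate block, 0 genes passed, and the unadjusted counts were 5, 3 and 4 (13.5%, 7.29% and 9.85% of all probes). Unadjusted counts were 9, 7 and 4 on the ratios as deposited (9.93%, 7.64% and 7.64% of all probes). They were 14, 4 and 6 with array weights (20.1%, 7.56% and 13.3%). With 1 sample left out they were 2 to 12, 3 to 7 and 1 to 6 (8.92% to 17.9%, 5.51% to 9.74% and 7.43% to 14.1%). The difference of Rps6 between carcinoma and cirrhotic liver was -0.05 with a floor at the 25th percentile and ran from -0.65 to 0.74 with 1 sample left out. The difference of Rplp0 between cirrhotic and control liver, -0.08 (-1.38 to 1.22, adjusted p = 0.972), was 0.65 after subtraction of the running median and ran from -0.55 to 0.14 with 1 sample left out. The causes were not tested. Signal over background is unknown, so the limit it sets is not given.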
